A study of Mus musculus with 4 samples.

Results

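Both arms of miR-9 and both arms of miR-124 are the 4 miRNA names described here, of 1900 names in the deposited count table: mmu-miR-9-5p, mmu-miR-9-3p, mmu-miR-124-5p and mmu-miR-124-3p. They were taken by name, as the classic miRNAs of neural progenitors and neurons. The counts come from 4 small RNA libraries, prepared after RNA immunoprecipitation (RIP) for Argonaute2 (AGO2), the protein that holds a mature miRNA on its target RNA. All mice were C57BL/6, and olfactory bulbs were dissected fresh 8 weeks after the injection. The GFP-AGO2 group (n = 2 libraries, replicates 1 and 3) received the viral vector LV.PGK.GFP-AGO2; the name points to AGO2 joined to green fluorescent protein and to PGK, a promoter active in most cell types. The Control group (n = 2 libraries, replicates 1 and 3) was sham-injected, with no vector. The series text speaks of newborn neurons, whereas the sample labels name dissected bulb tissue. Neither the antibody nor the injection site, the animals' age or the number of mice per library is given in the sources used here. Nothing in the labels ties the replicates to different animals, so each p-value reflects the spread between these libraries alone, and that spread may be technical.

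MiR-9 and miR-124 act at successive steps of neuron formation. MiR-9-5p represses the progenitor receptor Tlx (Nr2e1) and the transcription factor Rest, and miR-9-3p, from the other strand of the same hairpin, represses the Rest partner CoREST. MiR-124-3p accumulates as neurons form and represses the splicing factor Ptbp1 and, in the adult neurogenic niche that supplies the olfactory bulb, Sox9. A miRNA hairpin is cut into a 5p and a 3p arm, and usually one arm is kept in AGO2 and the other is degraded.

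The sequences show why miR-9 counts cannot be split by gene. Of the 4 names, 2 matched the RefSeq miRNA table (build GRCm38.p6). The mature miR-9 arms are given 5′ to 3′ with the seed, bases 2 to 8, in capitals.
mmu-miR-9-5p: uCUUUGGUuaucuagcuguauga
mmu-miR-9-3p: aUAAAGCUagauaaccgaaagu
The seeds differ, and a miRNA finds its target sites mainly through the seed. Among 1603 names of the table that had a RefSeq sequence, each of these seeds was found in 1 name only, the arm itself. The arms pair with each other through an unbroken stretch of 12 Watson-Crick pairs, bases 6 to 17 of miR-9-5p with bases 5 to 16 of miR-9-3p. The mouse genome encodes both arms at 3 hairpins, shown here 5′ to 3′ on the plus strand with the mature arms in capitals.
Mir9-1, chr3:88215598-88215686: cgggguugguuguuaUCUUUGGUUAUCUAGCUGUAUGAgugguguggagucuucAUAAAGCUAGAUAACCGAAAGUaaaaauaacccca
Mir9-2, chr13:83738814-83738885: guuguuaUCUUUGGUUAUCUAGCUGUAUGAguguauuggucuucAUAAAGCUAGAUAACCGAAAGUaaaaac
Mir9-3, chr7:79505264-79505353: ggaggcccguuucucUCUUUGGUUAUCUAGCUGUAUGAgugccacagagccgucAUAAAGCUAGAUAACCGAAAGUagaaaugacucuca
The capitals are identical in the 3 hairpins, and only the loops, of 16, 14 and 16 bases, and the flanks differ. Each count is therefore a sum over 3 genes.

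In the GENCODE annotation of GRCm38, Mir9-1 lies in an intron of the lincRNA gene Gm3764, Mir9-2 in an exon of C130071C03Rik and Mir9-3 in an intron of Mir9-3hg. MiR-124 also has 3 positions in the table (mm10, plus strand), which for miR-124-3p are chr14:64590709-64590728 in an exon of Mir124a-1hg, chr3:17795723-17795742 in an intron of Mir124-2hg and chr2:180894083-180894102 outside annotated host genes. None of the members overlaps another name of the table, which matters because reads over overlapping names were not counted. The counting command carries no strand option, and RefSeq places the names mmu-miR-9b-5p and mmu-miR-9b-3p on the minus strand over the same miR-9 positions. The table has no miR-9b row, so reads from the minus strand there would be counted as miR-9. Hairpins close by gave few reads. MiR-3093-3p, 366 bases from miR-9-5p at Mir9-1, had 23 and 5 counts in the Control libraries, against 14 and 41 in the GFP-AGO2 libraries. MiR-3078-5p, 472 bases from miR-124-3p on chromosome 14, had 31 and 10 in Control, against 2 and 6 in GFP-AGO2.

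Total miRNA counts were 673916 to 1006861 per Control library and 1858354 to 2809758 per GFP-AGO2 library, with 714 to 843 names detected. All 4 members passed the low-count filter and were among the 457 names tested. Levels below are CPM, the usual depth-normalised count unit, scaled between libraries by the TMM method. A read spans a whole mature miRNA and the members are 20 to 23 bases long, so levels were not divided by length. Adapter ligation favours some small RNAs over others, so the order of levels between names is that of the libraries.

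The level of miR-9 was higher in the GFP-AGO2 libraries than in the Control libraries on both arms, about 2-fold. The labels do not say whether the Control libraries hold RNA of endogenous AGO2 or nonspecific background, so a change in AGO2-bound miR-9 and an enrichment over background cannot be told apart. MiR-9-5p had 915 and 792 CPM in the Control libraries (replicates 1 and 3), against 2177 and 1581 CPM in the GFP-AGO2 libraries. Each GFP-AGO2 library lay above each Control library. The arm rose 2.20-fold (95% interval 1.53 to 3.16; log2 fold change 1.14, SE 0.21, edgeR quasi-likelihood adjusted p = 0.0115). MiR-9-3p had 1514 and 2493 CPM in Control and 4048 and 4339 CPM in GFP-AGO2. Here too the groups did not overlap, with Control replicate 3 the closer of the Control libraries to GFP-AGO2. MiR-9-3p rose 2.10-fold (95% interval 1.33 to 3.29; log2 fold change 1.07, SE 0.26, edgeR adjusted p = 0.0281). In bulk samples, more cells of a type and more RNA per cell cannot be told apart, and here neither can be told apart from more of the miRNA being bound by AGO2.

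MiR-124 did not pass the test on either arm. MiR-124-3p, the most abundant of the 4 in every library, had 5618 and 7280 CPM in Control and 6309 and 5277 CPM in GFP-AGO2. The groups overlapped, and the Control libraries spanned a wider range than the difference between the group means. Its fold change was 0.898, and the 95% interval of 0.650 to 1.24 left room for a moderate change in either direction (log2 fold change -0.15, SE 0.18, edgeR adjusted p = 0.555). MiR-124-5p, the minor arm of its hairpin, had 79.0 and 107 CPM in Control and 85.8 and 83.4 CPM in GFP-AGO2, from 65 to 255 counts per library. Its fold change was 0.914, with a 95% interval of 0.591 to 1.41 (log2 fold change -0.13, SE 0.25, edgeR adjusted p = 0.725).

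**Figure D1:**
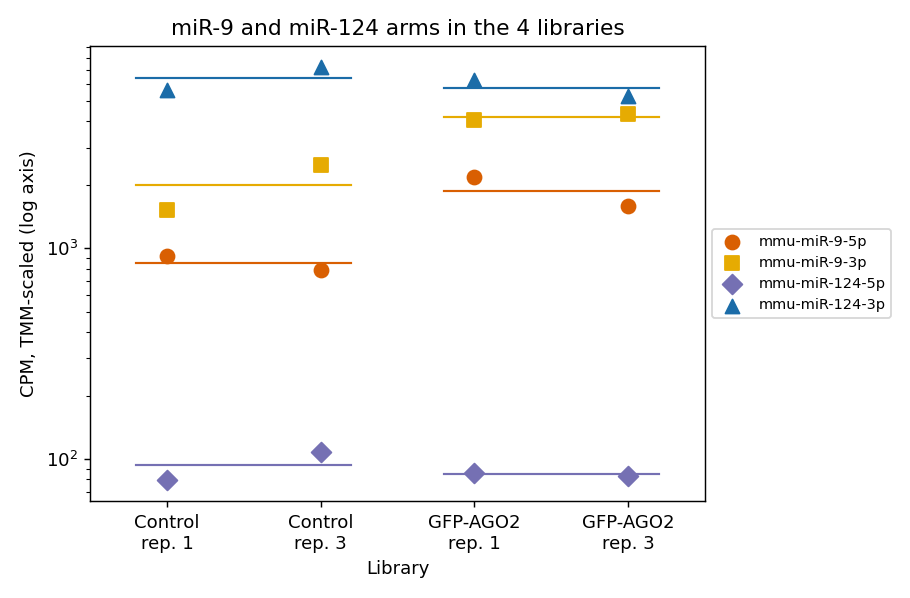
CPM of the 4 arms (log axis) in each of the 4 libraries; points are libraries and lines are group means. The miR-9 arms are higher in both GFP-AGO2 libraries than in both Control libraries, and the miR-124 arms overlap between the groups.

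A rise was common in this comparison. Of the 457 names tested, 79 (17.3%) were called higher and 78 (17.1%) lower at an adjusted p under 0.05, and in 36.8% both GFP-AGO2 libraries exceeded both Control libraries, against 35.2% with both below. Among the members 2 of 4 were called higher, none lower. The same 2 of 4 had groups that did not overlap, both upward. By log2 fold change miR-9-5p ranked 68 and miR-9-3p 80 from the top of the 457, above the upper quartile of all names at 0.76 and below the median of the called rises at 1.37. MiR-124-5p and miR-124-3p ranked 249 and 251, beside the median of all names at -0.01. With DESeq2, the other tool, miR-9-5p (1.14) and miR-9-3p (1.08) were also called higher, with 18.1% of its tested names called higher, and neither miR-124 arm was called.

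Calls of miR-9 were lost only in fits that left out a Control library, and those fits called fewer of all names too. Without Control replicate 1, miR-9-5p had 1.306 (edgeR adjusted p = 0.0571) and miR-9-3p 0.803 (edgeR adjusted p = 0.0906), and without Control replicate 3 miR-9-5p had 1.006 (edgeR adjusted p = 0.0903) on the log2 scale, none of them called. MiR-9-3p stayed called without Control replicate 3, at 1.43 (edgeR adjusted p = 0.0275). Both arms stayed above Control in each of these fits.

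**Figure D2:**
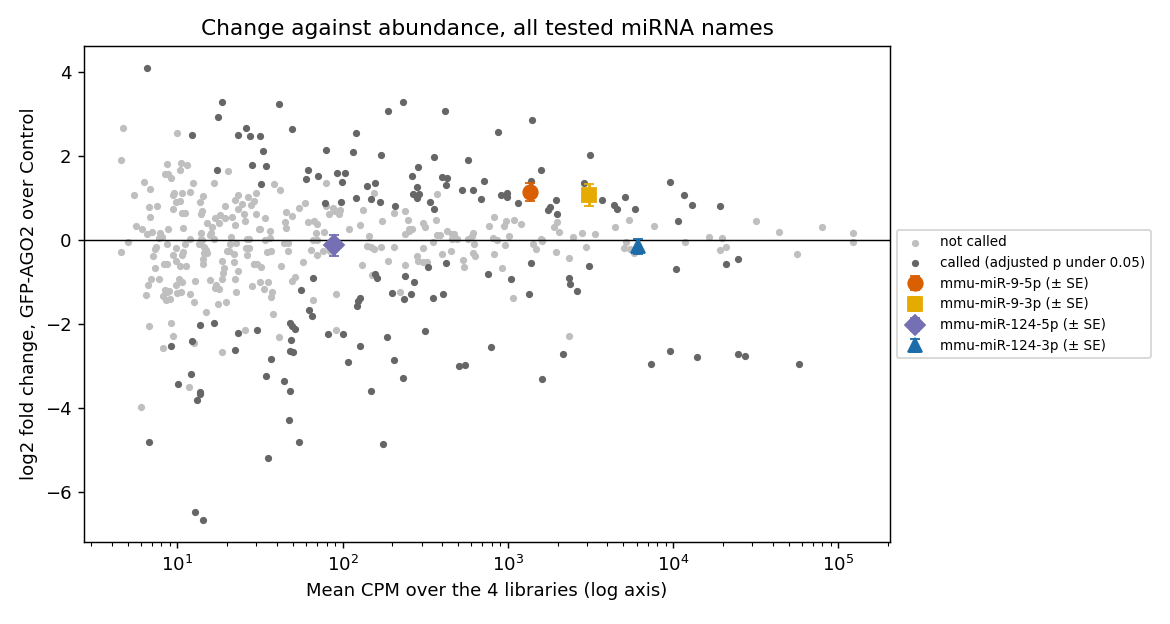
Log2 fold change of GFP-AGO2 over Control against mean CPM (log axis) for the 457 tested names; dark points are called and bars on the members are ± SE. The miR-9 arms lie near 1.1 within the cloud of called rises, and the miR-124 arms lie near 0.

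Expressed against each other, the pair shifted toward miR-9. With both arms summed, miR-9 made up 29.9% and 30.8% of the miR-9 and miR-124 counts in the Control libraries (replicates 1 and 3), against 49.3% and 52.5% in the GFP-AGO2 libraries. With the arms summed, replicates of a group were close to each other and the groups lay well apart. The log2 ratio of summed miR-9 over summed miR-124 was -1.20 ± 0.0433 (SD, n = 2) in Control and 0.05 ± 0.129 (SD, n = 2) in GFP-AGO2, a 2.38-fold difference in the ratio. This ratio within a library needs no scaling. The ratio of miR-9-5p over miR-124-3p differed by 1.27 on the log2 scale (-2.618 and -3.198 in Control, -1.535 and -1.739 in GFP-AGO2). That of miR-9-3p over miR-124-3p differed by 1.26 (-1.892 and -1.546 in Control, -0.6404 and -0.2824 in GFP-AGO2). From replicate 1 to replicate 3 the 5p ratio fell and the 3p ratio rose in both groups, so the summed ratio spread less than either. For all 3 ratios the exact two-sided permutation test gave p = 0.333, the smallest value that 2 libraries against 2 can give, so no difference could pass 0.05.

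As a share of all miRNA counts, miR-9 took 0.232% and 0.2953% of the Control libraries and 0.6583% and 0.6492% of the GFP-AGO2 libraries, a mean difference of 0.39 percentage points (exact permutation p = 0.333). MiR-124 took 0.5444% and 0.664% of the Control libraries and 0.6763% and 0.5878% of the GFP-AGO2 libraries, with a mean difference of 0.0279 percentage points (exact permutation p = 0.667). The mean miR-9 share in GFP-AGO2 was 2.48 times that in Control, and the miR-124 shares overlapped between groups. Names of the miR-200 family and miR-183 cluster took a smaller share of GFP-AGO2, which raises the shares of all other names by construction. With those names left out of the denominator, the mean difference was 0.3348 percentage points for miR-9 and -0.1343 for miR-124 (exact permutation p = 0.333 for each). In single libraries the precision was set by counts: miR-124-5p, the rarest member, took 0.007548% of Control replicate 1 (95% exact binomial interval 0.005947 to 0.009448) and 0.009076% of GFP-AGO2 replicate 1 (0.007996 to 0.01026). Such intervals cover counting error only, since PCR copies are counted as separate reads.

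The order of levels was the same in all 4 libraries: miR-124-3p, miR-9-3p, miR-9-5p and then miR-124-5p. Between neighbours in this order the ranges over libraries of a group did not overlap in either group. The distance between the first and the second shrank, from 3.71 and 2.92 counts of miR-124-3p per count of miR-9-3p in Control to 1.56 and 1.22 in GFP-AGO2. Among all names detected, miR-124-3p ranked 25 to 28 in Control and 24 to 32 in GFP-AGO2. MiR-9-3p moved from ranks 64 and 50 to rank 37 in both GFP-AGO2 libraries, and miR-9-5p from 80 and 87 to 53 and 63.

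MiR-9 and miR-124 differed in how their arms were divided. The arm named 3p was the larger miR-9 arm in every library, at 62.3% and 75.9% of both arms in Control and 65.0% and 73.3% in GFP-AGO2. The exact binomial intervals of Control replicate 1 (60.3 to 64.3) and replicate 3 (73.9 to 77.7) did not overlap. The libraries of 1 group thus differed by more than the counting error of independent reads. PCR copies are not independent, so these intervals may be too narrow. The groups overlapped: the log2 ratio of 5p over 3p was -1.19 ± 0.655 (SD, n = 2) in Control and -1.18 ± 0.397 (SD, n = 2) in GFP-AGO2 (difference 0.01, exact permutation p = 1.0). In both groups the library numbered 3 had the larger 3p portion. MiR-124 was nearly all 3p, with 71.1 and 67.8 counts of miR-124-3p per count of miR-124-5p in Control and 73.5 and 63.3 in GFP-AGO2. Its log2 arm ratio was 6.11 ± 0.0492 (SD, n = 2) in Control and 6.09 ± 0.154 (SD, n = 2) in GFP-AGO2 (difference -0.02, exact permutation p = 1.0).

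**Figure D3:**
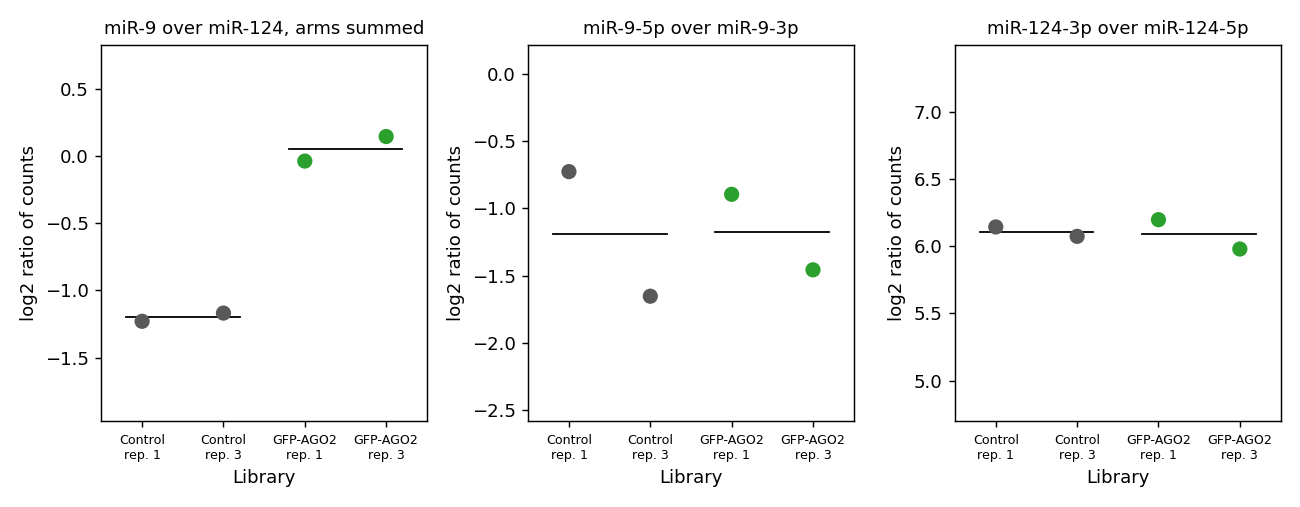
Log2 count ratios within each library for summed miR-9 over summed miR-124, miR-9-5p over miR-9-3p and miR-124-3p over miR-124-5p; points are libraries, lines are group means, and each panel spans the same log2 range. The first ratio separates the groups, and the arm ratios overlap between them.

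Among 109 miRNA stems with both arms tested, the 3p arm was the larger in all 4 libraries in 43, the 5p arm in 46, and 20 were mixed. The mean arm imbalance of miR-9, at 1.18 on the log2 scale, was smaller than the median stem's 2.62, and that of miR-124, at 6.10, was exceeded by 17 stems. The 2 arms of miR-9 changed by nearly the same amount, as did those of miR-124: 2 stems had a smaller change of the arm ratio than miR-9, 3 had a smaller one than miR-124, and the median absolute change was 0.79. The arm ratios of the Control replicates of miR-9 (-0.73 and -1.65) lay further apart than this median, so its small group difference is one between means of widely spread libraries. MiR-9 was 1 of 8 stems with both arms called higher.

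**Figure D4:**
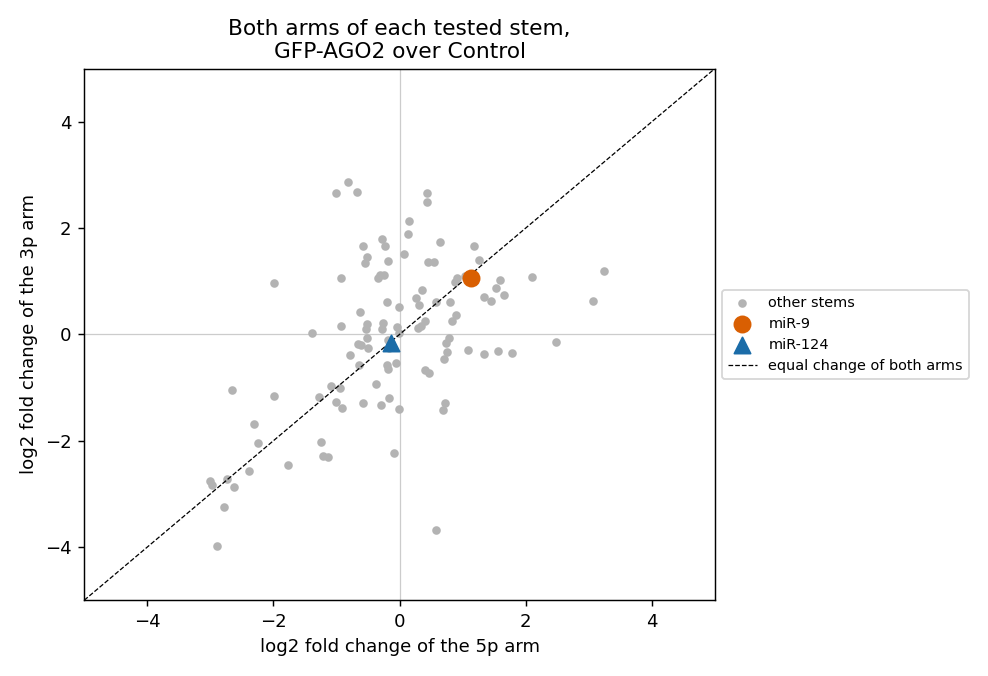
Log2 fold change of the 3p arm against that of the 5p arm for 109 stems with both arms tested; the dashed line marks equal change. MiR-9 and miR-124 lie close to this line, miR-9 near 1.1 on both axes and miR-124 near 0.

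The names with patterns closest to each member were found from log2 CPM centred over the 4 libraries, as the root mean square difference, among 195 other names with a mean of at least 100 CPM. With 4 libraries this likeness is a description. MiR-9-5p was closest to miR-490-3p (0.11), let-7a-1-3p (0.11) and miR-409-3p (0.13), nearer than to its own partner arm (0.38). MiR-9-3p was closest to miR-6944-3p (0.099), miR-125a-3p (0.16) and miR-30c-5p (0.20). For miR-124-3p the closest names were miR-132-3p (0.018), an activity-regulated neuronal miRNA, miR-7a-5p (0.045), a miRNA abundant in the olfactory bulb, and miR-669c-5p (0.082). MiR-124-5p was closest to miR-872-5p (0.078), miR-132-3p (0.083) and miR-7a-5p (0.088), and it differed from miR-124-3p by 0.081. MiR-132-3p, for example, had 2703 and 3610 CPM in Control and 3052 and 2539 CPM in GFP-AGO2, the same order of libraries as miR-124-3p.

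Other neuron-enriched miRNAs were called higher about as often as all names. Of 22 tested names of this list, 4 were called higher, 1 lower and 17 neither, beside 17.3% of all names called higher and 17.1% lower, with a median log2 fold change of 0.16 against -0.01 over all 457 names; 2 of the 22 had a larger log2 fold change than miR-9-5p and miR-9-3p. Those called higher were miR-495-3p (2.57), miR-384-5p (1.53), miR-488-3p (0.91) and miR-384-3p (0.88), and the one called lower was miR-138-5p (-0.82), a regulator of dendritic spines. The most abundant of the list, miR-7a-5p and miR-7b-5p, had log2 fold changes of -0.23 and -0.19, neither called. Of 18 tested miRNAs known to act in neurogenesis, 2 were called higher, 2 lower and 14 neither, with a median of 0.19. These counts are not above the 17.3% and 17.1% of all names. They are not independent of the neuron-enriched list, which also holds miR-7a-5p, miR-132-3p, miR-128-3p, miR-137-3p and miR-153-3p, none of them called. Called higher were miR-93-5p (0.79) and miR-106b-5p (1.34); miR-25-3p, from the same genomic cluster, had 0.20 and was not called (edgeR adjusted p = 0.454). Called lower were miR-181a-5p (-0.46) and miR-184-3p (-2.31). Let-7b-5p, which like miR-9-5p represses Tlx, had 123564 ± 9956 CPM in Control and 120061 ± 13601 CPM in GFP-AGO2 (SD, n = 2 each) and was not called (edgeR adjusted p = 0.849).

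Of the other lists, the miR-200 and miR-183 groups, the vessel and blood names and the immune names took a smaller share in GFP-AGO2. The shares of the astroglia list overlapped between the groups. The 8 names of the miR-200 and miR-183 groups are abundant in olfactory and other epithelia, but which cells they came from here was not tested. They took 23.0% to 23.4% of each Control library and 2.56% to 5.0% of each GFP-AGO2 library. All 8 were called lower, among them miR-183-5p (-2.97) and miR-200a-3p (-2.76), beside 17.1% of all 457 names. The lists that follow have too few tested names for their counts to be set against that share. With the names of the miR-200 family and miR-183 cluster left out before scaling, miR-9-5p and miR-9-3p had log2 fold changes of 1.154 and 1.095, both called. With all names they had 1.138 and 1.067. That setting only takes names out of the scaling and the test, so it cannot show whether tissue make-up differed. Vessel and red blood cell names took 0.305% to 0.427% of Control and 0.0282% to 0.146% of GFP-AGO2. Nearly all of this was miR-143-3p (-2.29, not called), at 4438 and 3350 CPM in Control and 267 and 1325 CPM in GFP-AGO2. The other of the 2 tested names, miR-451a (-3.63), was called lower at a low level, with means of 25.3 CPM in Control and 2.1 CPM in GFP-AGO2. Microglia and immune names took 0.0525% to 0.062% of Control and 0.00772% to 0.0228% of GFP-AGO2. Of 3 tested names 2 were called lower, miR-146a-5p (-2.17) and miR-150-5p (-2.38), and miR-155-5p (-0.09) was not called. Of 5 tested astroglia-enriched names 2 were called lower, at low levels, and the list took 0.808% to 0.877% of Control and 0.791% to 0.905% of GFP-AGO2. Its most abundant names, miR-29a-3p (-0.31) and miR-21a-5p (0.07), were not called. The 4 oligodendrocyte names, miR-142-3p, miR-126a-3p, miR-126a-5p and miR-129-2-3p were listed at 0 in all libraries, and all 8 overlap another name, so their zeros were not read as absence. The part that the cells behind any of these lists have in the miR-9 result was not tested.

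The sign of the miR-124 changes varied with the scaling, among other settings, and that of miR-9 did not. With total counts alone the 2 miR-124 arms had log2 fold changes of 0.06 (3p) and 0.09 (5p), not called, and the miR-9 arms 1.35 (5p) and 1.29 (3p), both called. With no scaling the median log2 fold change over all names was 1.67, and all 4 members were called higher, miR-124-3p and miR-124-5p at 1.59. Relative to the median of all names, miR-9-5p then stood at 1.17, miR-9-3p at 1.15, and miR-124-3p at -0.08.

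**Figure D5:**
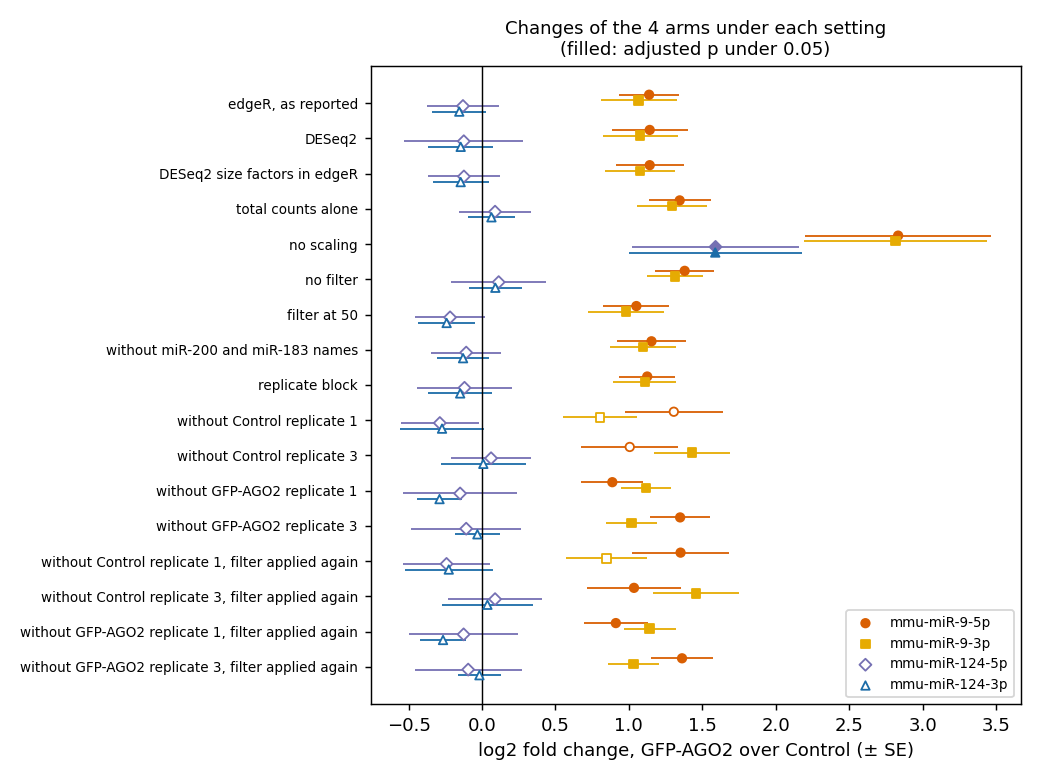
Log2 fold change ± SE of the 4 arms under each processing setting; filled symbols are called at an adjusted p under 0.05. The miR-9 arms lie between 0.80 and 2.83 throughout, and the miR-124 arms lie around 0 except with no scaling.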

How the data were processed

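Small RNA was sequenced after AGO2 immunoprecipitation, 2 libraries per group. The deposited values are raw counts per mature miRNA name; per the file headers, featureCounts (v1.4.6-p1) counted primary alignments over mouse miRNAs annotated on mm10. Trimming and alignment tools named in the submitters' processing notes are cutadapt and STAR, without versions. Columns were tied to samples by title.

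The test across names was that of edgeR 4.0.16 under R 4.3.3 (quasi-likelihood F test, TMM, filterByExpr at a minimum count of 10), two-sided, with Benjamini-Hochberg adjustment over all 457 names tested, which held 99.88% to 99.93% of the counts. Log2 CPM used a prior count of 2 and ratios a pseudocount of 0.5. The script was tested on simulated data. DESeq2 1.42.0, other scalings and filters, a replicate block and leaving out each library were alternatives. Members and lists were chosen with earlier results of these data known. Named are the members, the 3 likest names of each and the 2 most abundant tested names of each list; called names of the 2 neuronal lists, miR-25-3p and neighbouring hairpins were added after their values were seen. The replicate numbers 1 and 3 are shared by the groups, but nothing shows that they pair samples.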

Additional observations from a re-analysis of the deposited data

How the results depend on the processing

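Both miR-9 arms lay above Control in every setting run, and lost their call only where a Control library was left out. Without single libraries, miR-9-5p ranged from 0.8874 to 1.349 and miR-9-3p from 0.8033 to 1.43 on the log2 scale; with the low-count filter applied again to the remaining libraries, an alternative chosen after seeing the data, miR-9-5p was called in all 4 cases (0.9114 to 1.362) and miR-9-3p (0.8489 to 1.457) in all but that without Control replicate 1 (0.8489, edgeR adjusted p = 0.0726). Fits without a GFP-AGO2 library estimate the spread from Control only. The miR-124 arms changed sign, without a call, with total counts alone (3p 0.06445, 5p 0.08918), no filter (0.09104 and 0.1138) and without Control replicate 3; with no scaling they were called higher (1.588 and 1.59). Without single libraries miR-124-3p ranged from -0.2889 to 0.009302 and miR-124-5p from -0.2868 to 0.06185, and with the filter applied again from -0.265 to 0.03717 and from -0.2412 to 0.08922. The difference in miR-124 share was -0.1343 points with a denominator that leaves out the miR-200 family and miR-183 cluster, and -0.03195 to 0.08771 without single libraries. Without single libraries the differences in arm log2 ratio ran from -0.4493 to 0.477 for miR-9 and from -0.129 to 0.08924 for miR-124 (0.03702 with a pseudocount of 5), and that of miR-9 to miR-124 from 0.9812 to 1.561. Names called higher and lower were 264 and 20 with no scaling, and 47 to 94 and 43 to 106 without single libraries. Except for what no scaling does by construction, the cause was not tested. Without names of several positions no member has a value.

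With the replicate number as a block, miR-9-5p had 1.125 and miR-9-3p 1.109, both called, and no member's call changed; the counts were 79 higher and 85 lower. The deviations of same-numbered libraries correlated at -0.0606. Depth limits miR-124-5p most, at 65 counts in its shallowest library.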
